A study of Homo sapiens with 6 samples.

Results

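The genes described here are the nuclear genes of oxidative phosphorylation in HepG2 cells, a human liver cancer line, after knockdown of the long noncoding RNA CHROME. They were picked by a rule on gene names, set with earlier results of these data known. The rule takes every measured gene whose symbol marks it as an NDUF subunit of complex I or 1 of the SDH genes of complex II. It also takes the UQCR genes and CYC1 of complex III, the COX4 to COX8 genes of complex IV and the ATP5 genes of complex V. The rule found 92 of 23368 genes, none of them repeated in the table. Of the 92, 75 encode accepted subunits: 36 in complex I, 4 in complex II, 9 in complex III, 11 in complex IV and 15 in complex V. The other 17 were 8 tissue isoforms or paralogues, 2 pseudogenes, 2 retrocopies, 2 readthrough genes and 3 genes whose older symbols share the prefix, ATP5S, ATP5SL and COX4NB. COX4NB is an older symbol of a subunit of the endoplasmic reticulum membrane protein complex, so for that gene the prefix goes against the label. NDUFA4 and its paralogue NDUFA4L2 were counted with complex IV, where the NDUFA4 protein is now placed.

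The shCHROME group was HepG2 cells carrying a lentiviral pLKO hairpin against all CHROME variants, and the EV group was HepG2 cells carrying a hairpin with no target in the same vector, with 3 libraries (a, b and c) in each group. Both groups were stably transduced with virus packaged in HEK293T cells, an embryonic kidney line. The study asked which genes changed after the knockdown, by RNA sequencing of total RNA. The sample titles name a single hairpin for the knockdown group, and the labels do not give the time after transduction, and leave unsaid whether each library of a group had a culture of its own. The p-values therefore rest on how far these libraries scatter, and that scatter may be technical. CHROME itself is not analysed here.

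Oxidative phosphorylation passes electrons from NADH and succinate through complexes I to IV to oxygen, pumps protons across the inner mitochondrial membrane at complexes I, III and IV, and lets them return through complex V, which makes ATP. Most subunits are encoded in the nucleus and imported, and a small core of complexes I, III, IV and V is encoded by mitochondrial DNA. The deposited table lists 0 mitochondrially encoded genes, so that core is not analysed here. Nuclear subunit genes are widely reported to be switched on by NRF1, by ETS-family factors such as GABPA, by YY1 and by the nuclear receptor ESRRA with its PGC-1 coactivators, which in liver respond to fasting and lipid supply.

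The promoters of subunit genes were searched for motifs, which the name rule did not use. The RefSeq promoter table (build GRCh38.p14, 250 bases before to 50 after the gene start) held 68 of the 92 genes, among them 61 of the 75 subunits. The following 4 are shown with motif matches in capitals: SDHA for its repeated NRF1 motif, UQCRC1 and UQCRFS1 for an NRF1 motif followed by a YY1 motif, and UQCRC2 because it is 1 of the genes whose mRNA passed the test below. They lie at chr5:218070-218369 (SDHA, plus strand), chr3:48609597-48609896 (UQCRC1, minus strand), chr19:29213102-29213401 (UQCRFS1, minus strand) and chr16:21953111-21953410 (UQCRC2, plus strand), each written 5′ to 3′ on the strand of its gene.
SDHA: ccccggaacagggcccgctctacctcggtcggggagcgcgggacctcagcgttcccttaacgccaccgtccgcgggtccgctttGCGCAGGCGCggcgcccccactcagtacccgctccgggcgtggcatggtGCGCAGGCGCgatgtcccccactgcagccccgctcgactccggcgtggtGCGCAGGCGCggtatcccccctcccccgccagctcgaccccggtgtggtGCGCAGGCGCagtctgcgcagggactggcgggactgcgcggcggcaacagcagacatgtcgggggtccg
UQCRC1: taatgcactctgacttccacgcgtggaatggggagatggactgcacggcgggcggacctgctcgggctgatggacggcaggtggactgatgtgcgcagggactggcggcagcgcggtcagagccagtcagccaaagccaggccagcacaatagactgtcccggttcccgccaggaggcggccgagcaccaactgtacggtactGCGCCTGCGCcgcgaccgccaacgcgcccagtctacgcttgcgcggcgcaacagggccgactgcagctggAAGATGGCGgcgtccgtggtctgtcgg
UQCRFS1: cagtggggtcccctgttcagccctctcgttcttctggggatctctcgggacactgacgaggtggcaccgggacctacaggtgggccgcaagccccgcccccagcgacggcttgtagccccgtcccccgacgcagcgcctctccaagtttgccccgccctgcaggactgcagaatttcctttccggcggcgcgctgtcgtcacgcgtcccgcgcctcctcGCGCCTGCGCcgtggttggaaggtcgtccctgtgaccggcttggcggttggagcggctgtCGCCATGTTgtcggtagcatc
UQCRC2: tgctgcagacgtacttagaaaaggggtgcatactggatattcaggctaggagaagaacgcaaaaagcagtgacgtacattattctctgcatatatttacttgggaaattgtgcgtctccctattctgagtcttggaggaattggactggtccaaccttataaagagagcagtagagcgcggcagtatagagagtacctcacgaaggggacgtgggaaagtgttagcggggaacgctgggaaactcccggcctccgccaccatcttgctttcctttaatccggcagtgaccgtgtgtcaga
SDHA carried 4 NRF1 matches, at -166, -117, -68 and -19 bases from the gene start, which is base 0. In UQCRC1 the NRF1 match began at -47 and the YY1 match at 23, and in UQCRFS1 they began at -31 and 29. UQCRC2 held no exact match to the motifs searched, and near matches were not counted.

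Over the 61 subunit promoters, the NRF1 motif (GCGC and TGCGC with any base between them), read on both strands, was found in 15 (24.6%), against 6.29% of all 27305 promoters of the same length. The ETS motif CCGGAAG was in 19 (31.1%), against 10.7% of all promoters. The YY1 motif AANATGGCG, with N for any base, was in 16 (26.2%), against 3.37%. Base composition moves with these shares: median GC content was 61% in subunit promoters and 58.3% in all promoters, and among the 12579 promoters with at least 60% GC the shares were 11.5% for NRF1, 16.1% for ETS and 4.97% for YY1. Of the 16 promoters with a YY1 match, 14 had it within the first 50 transcribed bases, 23.0% of subunit promoters against 1.90% of all promoters. The ESRRA half-site TNAAGGTCA was in NDUFB4 and SDHD among the 61 (3.28%), against 0.963% of all promoters and 0.437% of those with at least 60% GC. That share rests on 2 genes. All 4 motifs were searched as exact matches, and 38 of the 61 promoters held at least 1. A match describes the letters in the window and is not a measured binding site.

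**Figure D1:**
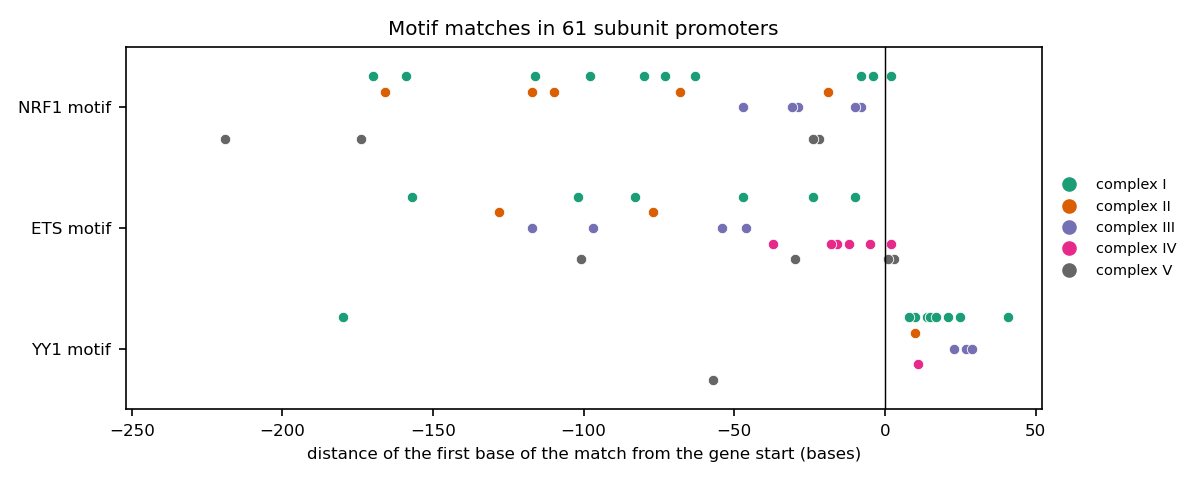
Position of each exact match to the NRF1, ETS and YY1 motifs in the 61 subunit promoters, in bases from the gene start (0), coloured by complex. Of 24 NRF1 matches 1 lies after the start, and of 22 ETS matches 3 do, whereas 14 of the 16 YY1 matches lie just after it.

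Subunit mRNA of all 5 complexes was present at nearly equal levels in shCHROME and EV cells. Values are normalized counts, the authors' read counts divided by a size factor for each library, and fold changes are differences of log2(normalized count + 1) fitted with limma. Summed over the 75 subunits, the libraries held 200167, 186932 and 194021 normalized counts in shCHROME a, b and c, against 190964, 199819 and 190203 in EV a, b and c. The groups overlapped, shCHROME a being the highest of the 6 libraries and shCHROME b the lowest. The mean was 193707 ± 6623 in shCHROME cells and 193662 ± 5345 in EV cells (SD, n = 3 each), a ratio of 1.00. The sums were 0.603% to 0.632% of all reads in shCHROME libraries and 0.587% to 0.617% in EV libraries. By complex, the shCHROME over EV ratio of summed counts was 1.01 for complex I, 0.985 for complex II, 0.975 for complex III, 1.00 for complex IV and 1.01 for complex V, and in each complex the libraries of the groups overlapped. In RNA from bulk cultures, fewer cells of a type and less RNA per cell cannot be told apart.

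**Figure D2:**
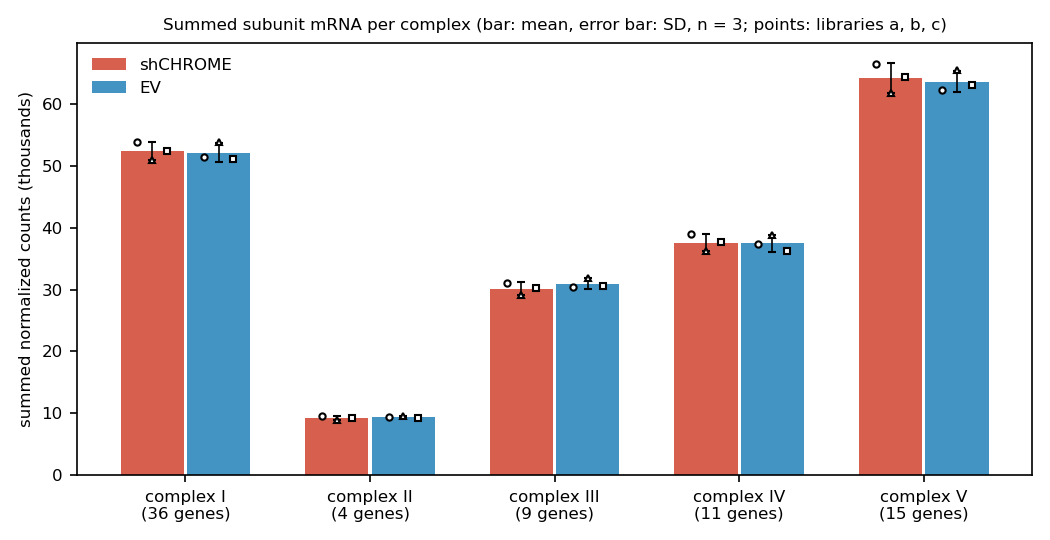
Summed normalized counts of the accepted subunits of each complex (bars, mean; error bars, SD, n = 3; circle, triangle and square for libraries a, b and c), shCHROME left of EV. The bars of a pair differ by less than the spread of their libraries, with ratios between 0.975 and 1.01.

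Of the 92 genes, 83 had enough reads to test, all 75 subunits among them with at least 303 reads in every library. At an adjusted p under 0.05 (limma, Benjamini-Hochberg over 14598 genes), 2 of the 83 were lower in shCHROME cells, UQCRC2 and COX7A2, and 0 were higher. Over all genes tested 10.5% were called, 6.87% as lower and 3.64% as higher, against 2.41% of the members. The count of lower members was 1 without EV a or EV c, 0 without EV b, shCHROME b or shCHROME c, and 4 without shCHROME a. Over all genes, the lower share in those fits was 4.29% without EV a, 4.4% without EV c, 4.82% without EV b, 6.18% without shCHROME b, 4.04% without shCHROME c and 7.12% without shCHROME a. Without EV b, 1 member was higher, against 2.43% of all genes. Scaling to library totals instead gave 1 lower and 7 higher members, against 4.81% lower and 6.41% higher over all genes (11.2% in all), a shift of the background to 702 lower and 936 higher genes where the deposited scaling gave 1003 and 532. edgeR's quasi-likelihood test also called 2 members lower and 0 higher (all genes, 10.6%, with 6.95% lower and 3.69% higher), and DESeq2 called 3 lower and 0 higher (all genes, 11.9%, with 7.72% lower and 4.2% higher). At an unadjusted p under 0.05, 8 were lower and 10 higher, 21.7% of those tested, against 24.2% of all genes (13.5% lower and 10.7% higher). The authors' deposited table calls 0 of 83, with UQCRC2 nearest at an authors' adjusted p of 0.0879, while it calls 9.04% of all its genes. The authors' means differ from those of the 6 libraries used here (UQCRC2, 6783 against 6915 normalized counts). Their log2 fold changes differ too, by little for UQCRC2 (-0.1865 against -0.203) and COX7A2 (-0.228 against -0.264). The gap was larger for ATP5L2 (-0.0813 against -0.467), which had a mean of only 10.6 normalized counts. Their calls therefore do not repeat the tests above on the same values.

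The intervals around the subunit values were narrow. For 52 of the 83 (62.7%) the 95% interval of the fold change lay wholly within 1.2-fold in either direction, against 34% of all genes tested, and for 80 (96.4%) within 1.5-fold, against 74.9%. All 75 subunits were among those 80. Expression level moves with this share: 80 of the members had a mean of at least 100 normalized counts, and over them the median size of the log2 fold change was 0.07, against 0.10 over the 11274 genes at that level. The part of level in the narrow intervals was not tested. The extremes of those 80 were 1.17-fold higher and 1.2-fold lower. The median log2 fold change was 0.01 over the 83 and 0.01 over all genes. By complex it was 0.03, -0.03, -0.00, 0.03 and 0.01 for complexes I to V, over all members tested and not the subunits alone. Over the 75 subunits it was 0.01. In 10 members every shCHROME library lay above every EV library and in 9 below, 22.9% together, against 28% of all genes tested (13% above and 15% below).

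**Figure D3:**
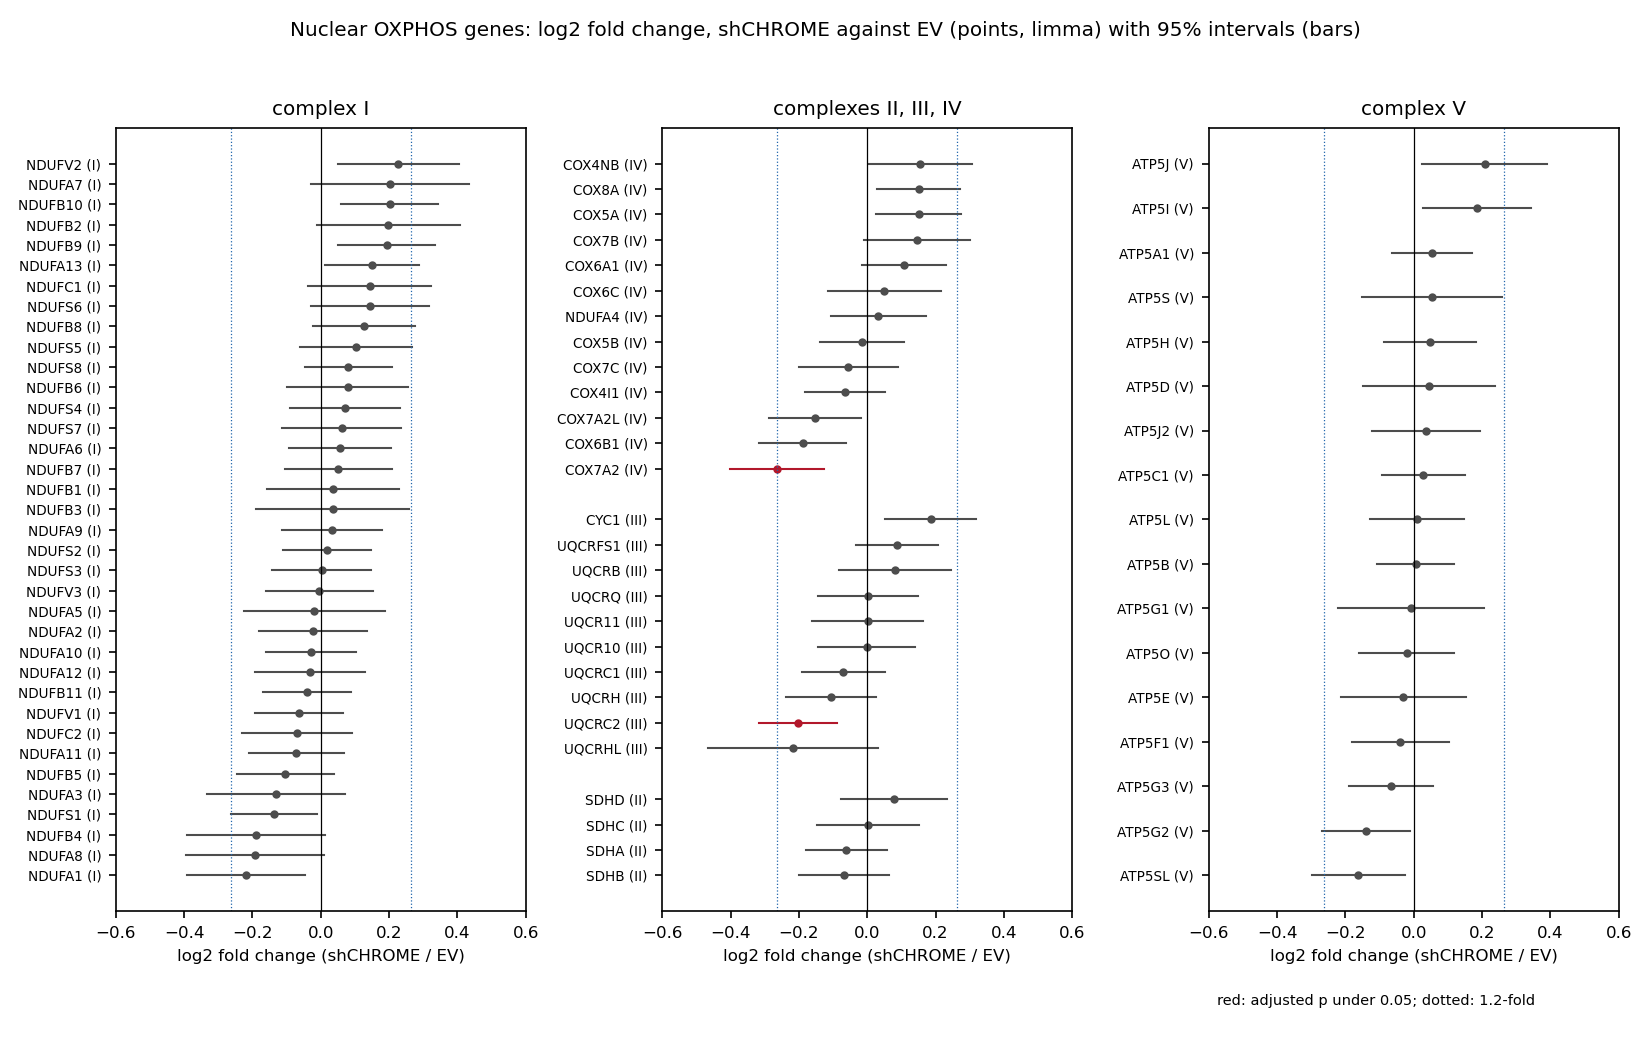
Log2 fold change (shCHROME minus EV) of the 80 genes with a mean of at least 100 normalized counts (points) with 95% intervals (bars), by complex; dotted lines mark 1.2-fold and red marks an adjusted p under 0.05. All 80 intervals stay within 1.5-fold, and UQCRC2 and COX7A2 are in red.

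Complex I takes electrons from NADH to ubiquinone. None of its 36 subunits passed the test by limma, edgeR or DESeq2. At an unadjusted limma p under 0.05, NDUFA1 and NDUFS1 were lower and NDUFA13, NDUFB9, NDUFB10 and NDUFV2 higher, beside 13.5% of all genes lower and 10.7% higher. Of the 36, 21 had a positive and 15 a negative fold change, beside 7622 positive and 6976 negative over all genes tested. Of the 7 core subunits, which hold the flavin and iron-sulfur clusters, NDUFS1 and NDUFV2 lay farthest from 0. NDUFS1, the largest iron-sulfur subunit, had 5960, 5206 and 5728 normalized counts in shCHROME a, b and c, against 6042, 6378 and 6124 in EV a, b and c. Every shCHROME library was below every EV library, but the log2 fold change of -0.14 (95% interval -0.26 to -0.01) had an adjusted p of 0.168 (limma). NDUFV2, which carries an iron-sulfur cluster beside the flavin site, had 1572, 1312 and 1402 normalized counts in shCHROME a, b and c, against 1143, 1368 and 1155 in EV. Here shCHROME was mostly higher, with EV b inside the shCHROME range, at 0.23 on the log2 scale (0.05 to 0.40, limma adjusted p = 0.0992). It passed without EV b (0.0319) and with library totals (0.0405), and its adjusted p reached 0.306 in other alternatives. It is the largest positive value of complex I. On either strand, 82% of the 50-base windows of its transcript also occur in a transcript annotated as another gene, so its count may depend on how such reads were assigned.

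NDUFA1, a small membrane-arm subunit encoded on the X chromosome, had the largest negative value of complex I. It had 1098, 919 and 1053 normalized counts in shCHROME a, b and c, against 1213, 1261 and 1098 in EV. shCHROME a and EV c overlapped by less than 1 count, and the log2 fold change was -0.22 (-0.39 to -0.05, limma adjusted p = 0.101), with an adjusted p of 0.0448 when shCHROME a was left out and up to 0.297 over all alternatives. Its transcript shares 40.7% of its windows with RNF113A, which overlaps it. NDUFA10, the supernumerary subunit with the highest mean normalized count in the complex (not corrected for length), had 3175, 3059 and 2921 normalized counts in shCHROME libraries and 2922, 3252 and 3172 in EV libraries. The groups overlapped throughout and the log2 fold change was -0.03 (-0.16 to 0.10). The 29 supernumerary subunits, which surround the core, had a median log2 fold change of 0.03, against 0.02 for the core.

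Complex II, succinate dehydrogenase, is also an enzyme of the citric acid cycle and is wholly encoded in the nucleus. None of its 4 genes passed the test by limma, edgeR or DESeq2, 0 had an unadjusted p under 0.05, and each had a 95% interval within 1.2-fold. SDHA, the flavoprotein that holds the catalytic site, had 4195, 3999 and 3877 normalized counts in shCHROME a, b and c, against 4295, 4169 and 4123 in EV, with a log2 fold change of -0.06 (-0.18 to 0.06). SDHB, the iron-sulfur subunit, had 1914, 1839 and 1903 against 2045, 1960 and 1926 in EV. Every shCHROME library of SDHB was below every EV library, by a log2 fold change of -0.07 (-0.20 to 0.06, limma adjusted p = 0.557). Of the membrane anchors, SDHC averaged 1162 ± 49.7 in shCHROME and 1160 ± 48.3 normalized counts in EV cells (SD, n = 3 each), and SDHD averaged 2175 ± 212 in shCHROME and 2055 ± 105 in EV cells. SDHC was the flattest of the 4, with a log2 fold change of 0.00, and SDHD had 0.08 (-0.08 to 0.23). SDHA shares 22.3% of its windows with other genes, its pseudogenes among them.

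In complex III, which passes electrons from ubiquinol to cytochrome c, 1 of 9 subunits fell and the other 8 did not pass the test. For scale, 6.87% of all genes tested were called lower, and the share here rests on 1 gene. UQCRC2, encoded on chromosome 16, is a core protein of the matrix side. It had 6454, 6219 and 6616 normalized counts in shCHROME a, b and c, against 7276, 7638 and 7289 in EV a, b and c. The groups did not overlap, and the highest shCHROME library was well below the lowest EV library. UQCRC2 fell 1.15-fold (log2 fold change -0.20, 95% interval -0.32 to -0.09, limma adjusted p = 0.0217), a call lost in 7 of 16 alternatives. It was lost with library totals (adjusted p = 0.0662), with the replicate letter as a block (0.0581) and without EV a (0.0609), EV b (0.0941), EV c (0.061), shCHROME b (0.0502) or shCHROME c (0.0524), and the lowest value of any alternative was 0.00624. None of the windows of its transcript occurs in another gene.

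UQCRC1, the other core protein, had 5035, 5165 and 4721 normalized counts in shCHROME a, b and c, against 5041, 5419 and 5204 in EV. The groups overlapped, with a log2 fold change of -0.07 (-0.19 to 0.05, limma adjusted p = 0.505). The difference between the fold changes of UQCRC1 and UQCRC2 was not tested. CYC1, the cytochrome c1 subunit, had 2315, 2451 and 2189 normalized counts in shCHROME libraries, against 2059, 2025 and 2024 in EV libraries. All shCHROME libraries lay above all EV libraries, and the log2 fold change was 0.19 (0.05 to 0.32) with a limma adjusted p of 0.0705. Scaled to library totals it passed the test (adjusted p = 0.0231), and over all alternatives the adjusted p ran up to 0.182. The Rieske iron-sulfur subunit UQCRFS1 averaged 5207 ± 297 in shCHROME and 4896 ± 65.4 normalized counts in EV cells (SD, n = 3 each), at 0.09 on the log2 scale.

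In complex IV, cytochrome c oxidase, 1 of 11 subunits fell and 10 did not pass the test. That share also rests on 1 gene, beside the 6.87% of all genes tested that were called lower. COX7A2, encoded on chromosome 6, is the widely expressed form of subunit VIIa. It had 2466, 2191 and 2373 normalized counts in shCHROME a, b and c, against 2744, 2995 and 2703 in EV a, b and c. Every shCHROME library was below every EV library. COX7A2 fell 1.2-fold (log2 fold change -0.26, 95% interval -0.40 to -0.13, limma adjusted p = 0.0144), the largest decrease among the accepted subunits. The call was lost without EV b (adjusted p = 0.0781), shCHROME b (0.0509) or shCHROME c (0.0514), and kept in the other 13 of 16 alternatives, with 0.00432 as the lowest adjusted p. Its transcript shares 0.138% of its windows with a pseudogene.

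COX6B1, which lies on the intermembrane side, came next. It had 1995, 1925 and 1953 normalized counts in shCHROME libraries, against 2218, 2284 and 2192 in EV libraries. The groups did not overlap, and the log2 fold change of -0.19 (-0.32 to -0.06) had a limma adjusted p of 0.0542, with 0.0359 by DESeq2 and up to 0.167 over all alternatives. On the positive side, COX8A had 3901, 3840 and 3645 normalized counts in shCHROME libraries, against 3402, 3511 and 3342 in EV libraries. Again the groups did not overlap, with 0.15 on the log2 scale (0.03 to 0.27, limma adjusted p = 0.108, and 0.0286 with library totals). COX4I1, the widely expressed form of subunit IV, averaged 5973 ± 226 in shCHROME and 6250 ± 218 normalized counts in EV cells (SD, n = 3 each), and COX7C averaged 5148 ± 415 in shCHROME and 5351 ± 425 in EV cells. For both genes the groups overlapped, with log2 fold changes of -0.07 and -0.06.

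**Figure D4:**
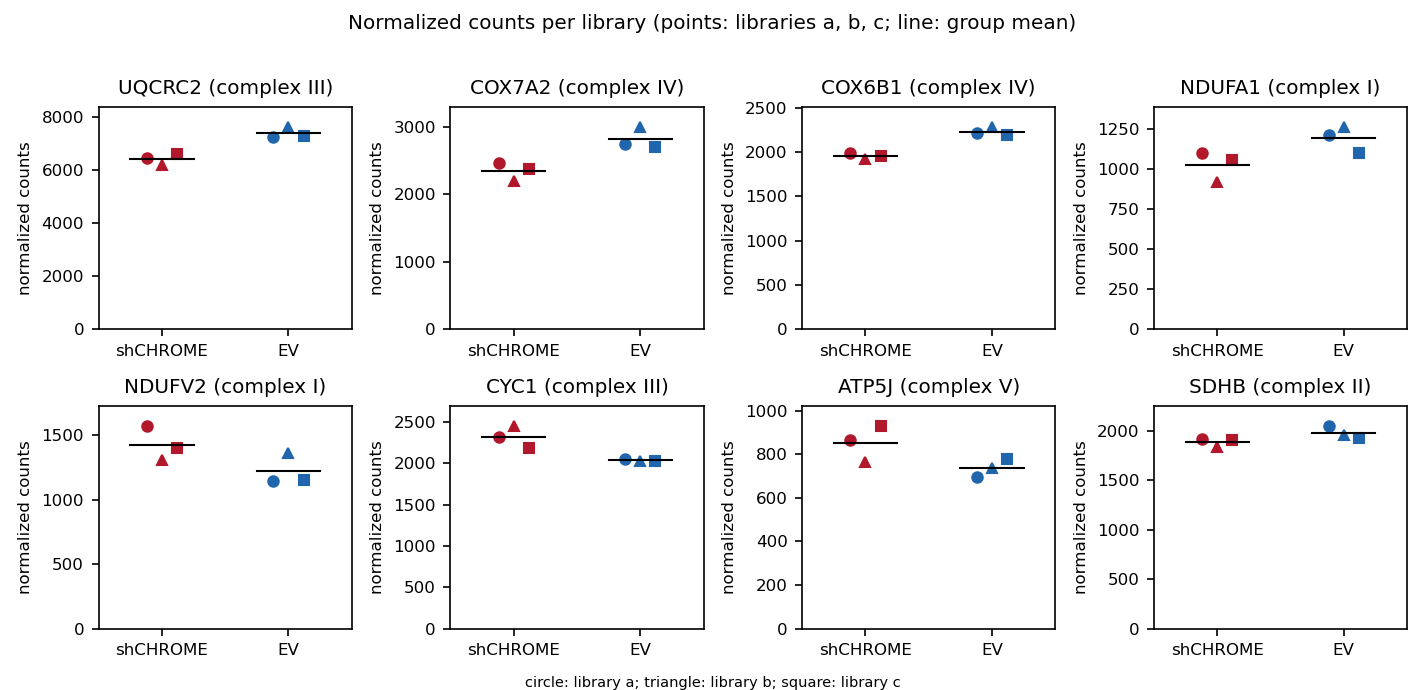
Normalized counts per library for 8 subunits (circle, triangle and square for libraries a, b and c; line, group mean), shCHROME left of EV in each panel. UQCRC2, COX7A2 and COX6B1 show 3 shCHROME libraries below 3 EV libraries and CYC1 shows 3 above, while NDUFA1, NDUFV2 and ATP5J overlap between groups, and SDHB separates by a margin smaller than the spread of its EV libraries.

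Complex V, the ATP synthase, had no subunit that passed the test among 15 by limma, edgeR or DESeq2. At an unadjusted limma p under 0.05, ATP5G2 was lower and ATP5I and ATP5J were higher, beside 13.5% of all genes lower and 10.7% higher. Its catalytic beta subunit ATP5B had 21265, 20172 and 20440 normalized counts in shCHROME a, b and c, against 20150, 21357 and 20120 in EV. The alpha subunit ATP5A1 had 18105, 16507 and 17039 normalized counts in shCHROME libraries, against 16076, 17138 and 16500 in EV libraries. Both overlapped between groups, with log2 fold changes of 0.01 (-0.11 to 0.12) and 0.05 (-0.06 to 0.17). ATP5J, the coupling factor 6 of the stalk, had 864.9, 764.0 and 929.0 normalized counts in shCHROME libraries, against 694.6, 736.8 and 778.6 in EV libraries. Only shCHROME b reached into the EV range, and at 0.21 (0.02 to 0.39, limma adjusted p = 0.147) this was the largest positive value of the complex.

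Several subunits are encoded by more than 1 gene, and these sets showed which form HepG2 cells use. Levels are given here per kilobase of 1 annotated transcript. COX4I1 had 8436 ± 320 in shCHROME and 8827 ± 307 normalized counts per kilobase in EV cells (SD, n = 3 each), whereas the lung-enriched, oxygen-responsive form COX4I2 had 0 reads over the shCHROME libraries and 3 over the EV libraries. COX6A1 stood at 9268 ± 374 in shCHROME and 8599 ± 394 per kilobase in EV cells, and the heart and muscle form COX6A2 had no read in either group. COX7B2 had no read either, and the testis form COX8C had 1 read over shCHROME and 0 over EV libraries, beside COX7B at 710.5 ± 56.3 per kilobase in shCHROME and 641.6 ± 41.4 in EV cells and COX8A at 7486 ± 264 in shCHROME and 6742 ± 169 in EV cells. COX6A1 shares 44.0% of its transcript's windows with other genes, mainly a pseudogene, and COX8A shares 27.7%, so these levels may depend on how such reads were assigned. Over the 75 subunits, 18 share more than 25% of their windows. A count of 0 allows up to 3 reads per library, for counting error only.

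The heart and muscle form COX7A1 had 17 reads over the shCHROME libraries and 15 over the EV libraries, and was not tested. COX7A2 stood at 3031 ± 181 per kilobase in shCHROME and 3640 ± 204 in EV cells, and COX7A2L, which tethers complexes III and IV in supercomplexes, at 3435 ± 251 in shCHROME and 3813 ± 178 in EV cells. COX7A2L had 4105, 3547 and 3805 normalized counts in shCHROME libraries, against 4149, 4467 and 4104 in EV libraries. shCHROME a overlapped EV c by under 1 count, and the log2 fold change of -0.15 had a limma adjusted p of 0.147, with 0.0426 when shCHROME a was left out and up to 0.4 over all alternatives. COX6B1 had 2935 ± 52.9 per kilobase in shCHROME and 3345 ± 71.1 in EV cells, and the testis form COX6B2 had 26.1 ± 5.05 in shCHROME and 27.6 ± 4.47 in EV cells. NDUFA4 had 1509 ± 120.5 per kilobase in shCHROME and 1473 ± 66.0 in EV cells, and its hypoxia-inducible paralogue NDUFA4L2 had 18.8 ± 10.8 in shCHROME and 12.2 ± 1.11 in EV cells. NDUFA4L2 had the largest positive log2 fold change of any member, 0.45, but rested on 11.2, 36.2 and 19.1 normalized counts in shCHROME libraries against 14.5, 15.5 and 12.9 in EV libraries. The groups overlapped and the adjusted p was 0.536 (limma).

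For the membrane-bound c subunit, which turns in the rotor of the ATP synthase, 3 genes encode the same mature protein. ATP5G3 led with 4166 ± 178 normalized counts per kilobase in shCHROME and 4358 ± 127 in EV cells (SD, n = 3 each). ATP5G2 had 1427 ± 54.1 in shCHROME and 1572 ± 74.3 in EV cells, and ATP5G1 had 1258 ± 35.4 in shCHROME and 1277 ± 210 in EV cells. The gaps depend on the transcript used, of 842 bases for ATP5G3, 1950 for ATP5G2 and 598 for ATP5G1. Before division by length, their means over all libraries were 3589, 2923 and 758 normalized counts. In log2 fold change ATP5G3, ATP5G2 and ATP5G1 stood at -0.07, -0.14 and -0.01, and none passed the test. Every shCHROME library of ATP5G2 was nonetheless below every EV library (limma adjusted p = 0.168). In complex III, UQCRH averaged 4031 ± 296 in shCHROME and 4334 ± 176 normalized counts in EV cells, and its retrocopy UQCRHL averaged 345.5 ± 49.2 in shCHROME and 400.7 ± 42.8 in EV cells. UQCRH shares 29.4% of its transcript's windows with UQCRHL, so counts of both are uncertain, and their log2 fold changes were -0.11 and -0.22 with overlapping groups. The ATP5L2 retrocopy averaged 8.96 ± 3.53 in shCHROME and 12.2 ± 1.94 normalized counts in EV cells and had the most negative value of all members, -0.47 (-1.38 to 0.45), within wide error.

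**Figure D5:**
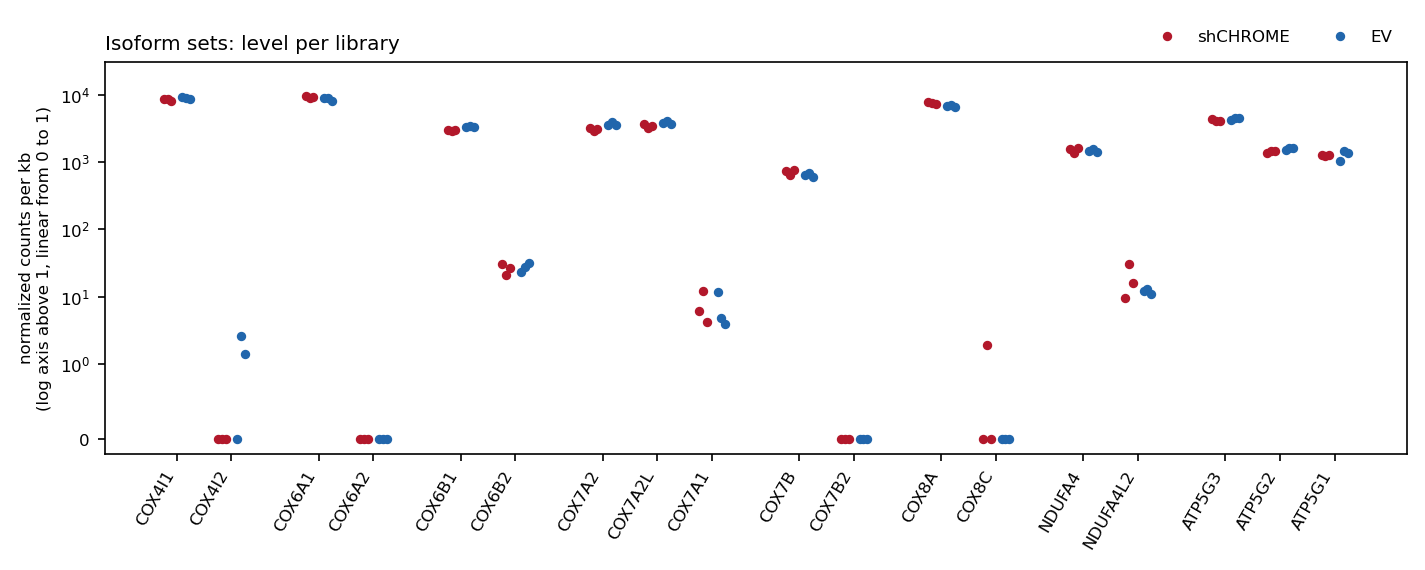
Normalized counts per kilobase of transcript in each library (points) for the paralogous sets, shCHROME left of EV, on an axis that is logarithmic above 1 and linear from 0 to 1. COX4I2, COX6A2, COX7B2, COX8C, COX7A1, COX6B2 and NDUFA4L2 lie far below their widely expressed partners in both groups, and the ATP5G genes lie within 1 order of magnitude of each other.

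The libraries of a group varied together over the subunits. shCHROME b was the lowest of its group for 49 of the 75 subunits and shCHROME a the highest for 41, and in EV cells library b was the highest for 51 and library c the lowest for 38. Over the 11274 genes with a mean of at least 100, shCHROME b was lowest for 39%, shCHROME a highest for 40.4%, EV b highest for 36% and EV c lowest for 32.5%. The part of this in the member values was not tested. Libraries held 29477352 to 33911426 reads in shCHROME and 29188213 to 35429420 in EV cells.

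Genes that build and supply the complexes were read from lists that hold none of the 92 genes. The lists were chosen with earlier results of these data known, so an excess over the shares of all genes cannot be read from them. For scale, limma called 6.87% of all genes as lower and 3.64% as higher, and 13.5% and 10.7% at an unadjusted p under 0.05. Of 15 complex I, 4 complex II and 6 complex III assembly factors and 4 genes for ATP synthase assembly and inhibition, 0 passed the test by limma or edgeR, and DESeq2 called 1, the complex III factor TTC19, as higher. At an unadjusted limma p under 0.05, ECSIT was lower and NDUFAF1 higher among complex I factors, and TTC19 and MNF1 were higher among complex III factors. CMC1, an assembly factor of complex IV, rose 1.32-fold, the only call among 23 complex IV assembly factors by limma, edgeR or DESeq2. At an unadjusted limma p under 0.05, SCO1, CHCHD8 and SELRC1 were also higher and COX19 was lower. It had 367.1, 327.7 and 369.9 normalized counts in shCHROME libraries, against 298.8, 249.5 and 260.9 in EV libraries, with no overlap (limma adjusted p = 0.028). The call was lost without EV b (0.111), EV c (0.0944), shCHROME a (0.0597) or shCHROME c (0.115), and the lowest value of its 16 alternatives was 0.0156. Of 4 respiratory genes that the naming rule leaves out, NDUFAB1, USMG5, C14orf2 and CYCS, 0 passed by limma, edgeR or DESeq2 or at an unadjusted p under 0.05, with log2 fold changes between -0.06 and 0.15. Of the 3 adenine nucleotide and phosphate carriers tested, 0 passed by limma, edgeR or DESeq2, with SLC25A5 lower at an unadjusted limma p under 0.05. SLC25A6 is listed at 0 in every library. Whether that 0 reflects its expression or how its reads were assigned was not tested.

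Of 13 genes of coenzyme Q synthesis and binding, 2 fell and 0 rose by limma, edgeR and DESeq2. At an unadjusted limma p under 0.05, COQ10B was also lower and COQ2 higher. Over all genes, limma called 6.87% as lower and 3.64% as higher, and 13.5% and 10.7% at that unadjusted p. ADCK3, a kinase-like protein needed to make coenzyme Q, had 2694, 2764 and 2672 normalized counts in shCHROME libraries, against 3268, 3111 and 3242 in EV libraries. The groups did not overlap and it fell 1.18-fold (limma adjusted p = 0.0109). The call was lost without EV a (0.0591), EV c (0.0558) or shCHROME c (0.0567), with 0.00184 as the lowest of 16 alternatives. COQ10A, a coenzyme Q binding protein, averaged 772.6 ± 32.7 in shCHROME and 948.4 ± 65.0 normalized counts in EV cells (SD, n = 3 each) and fell 1.23-fold (limma adjusted p = 0.0235), a call lost with library totals (0.0576) and without EV a (0.0795), EV b (0.111) or shCHROME c (0.0887), with 0.0115 as the lowest of its alternatives. Of 14 citric acid cycle genes, FH, the fumarase gene, rose 1.2-fold (limma adjusted p = 0.0406), and 13 did not pass. That call was lost with no filter (0.0504), with the block (0.0814) and without EV a (0.221), EV c (0.0868), shCHROME a (0.075) or shCHROME c (0.174), with 0.0167 as the lowest.

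Among 14 genes that copy and transcribe mitochondrial DNA, MTERFD1 rose and 13 did not pass, TFB1M, an rRNA methyltransferase, being nearest at a limma adjusted p of 0.0506 (DESeq2 called it higher). MTERFD1, of the mitochondrial termination factor family, had 220.4, 167.5 and 196.7 normalized counts in shCHROME libraries, against 108.2, 142.6 and 131.4 in EV libraries. The groups did not overlap and the increase was 1.53-fold (limma adjusted p = 0.0144), a call lost without EV a (0.0707) or shCHROME c (0.0615), with 0.0076 as the lowest of 16 alternatives. TFAM, which packages mitochondrial DNA, had a log2 fold change of 0.10 (-0.07 to 0.27). Of 76 mitochondrial ribosome genes, MRPL40 rose 1.42-fold and MRPL28 1.21-fold, 0 fell and 74 did not pass. edgeR and DESeq2 also called 2 higher and 0 lower. By limma, 3.64% of all genes were called higher and 6.87% lower. At an unadjusted limma p under 0.05, 10 of the 76 were higher and 2 lower, against 10.7% and 13.5% of all genes. The call of MRPL28 was lost without EV a (0.0723), EV c (0.0985), shCHROME a (0.06) or shCHROME b (0.0557), with 0.00775 as the lowest of 16 alternatives. MRPL40, a large-subunit protein, had 1069, 862.2 and 976.9 normalized counts in shCHROME libraries, against 710.2, 653.6 and 675.1 in EV libraries, clear of each other (limma adjusted p = 0.000925, and at most 0.00984 in any alternative).

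Of 10 regulators of subunit genes tested, 3 fell, 1 rose and 6 did not pass, while 10.5% of all genes were called. This list was chosen with earlier results of these data known, so an excess over that share cannot be read from it. ESRRA, the estrogen-related receptor that drives many mitochondrial genes, had 4580, 4675 and 4019 normalized counts in shCHROME libraries, against 5603, 5483 and 5436 in EV libraries. Every shCHROME library lay below every EV library, and it fell 1.25-fold (limma adjusted p = 0.00274, at most 0.0298 in any alternative). PPARA, the fatty-acid-sensing receptor of liver, averaged 5689 ± 268 in shCHROME and 7016 ± 309 normalized counts in EV cells (SD, n = 3 each) and fell 1.23-fold (limma adjusted p = 0.00234). The coactivator PPARGC1A averaged 1966 ± 100.1 in shCHROME and 2313 ± 131 in EV cells and fell 1.18-fold (limma adjusted p = 0.029), a call lost with library totals (0.075) and without EV a (0.0769), EV c (0.159) or shCHROME b (0.0833), with 0.0155 as the lowest of 16 alternatives. Its relative PPARGC1B, at the low levels of 58.5 ± 12.9 in shCHROME and 29.3 ± 7.39 normalized counts in EV cells, rose 1.97-fold (limma adjusted p = 0.0194), a call lost without EV a (0.0707), EV b (0.064) or shCHROME c (0.129), with 0.0161 as the lowest.

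NRF1 had a log2 fold change of 0.25 (0.03 to 0.47, limma adjusted p = 0.146), GABPA of -0.01 (-0.16 to 0.14) and YY1 of 0.07 (-0.07 to 0.21). Split by promoter motif, the median log2 fold change of subunits with and without a match was -0.02 and 0.02 for NRF1, 0.00 and -0.00 for ETS, and 0.07 and -0.02 for YY1. These medians describe the genes that carry each motif and were not tested. The genes with an ESRRA half-site, NDUFB4 and SDHD, had log2 fold changes of -0.19 and 0.08, and neither passed the test.

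HepG2 identity was read from 8 hepatocyte markers, all of them tested. AFP, ALB, APOA1, SERPINA1 and TTR fell and APOA2, FGB and HNF4A did not pass, although APOA2 (log2 fold change 0.17) and FGB (0.16) were higher at an unadjusted limma p under 0.05. The summed markers, of which ALB is most, ranged from 694300 to 814600 normalized counts in shCHROME libraries and from 918600 to 974700 in EV libraries. The part of this in the fall of UQCRC2 and COX7A2 was not tested. Of the packaging cell markers reported, NEFL and NEFM were at 0 in all libraries, and PAX2, LHX1 and EYA1 averaged under 4 normalized counts in both groups. CD3E of leukocytes and DCN of fibroblasts were at 0, PTPRC, COL1A1 and COL1A2 averaged under 1, CD68, a macrophage marker, averaged 332.3 ± 39.0 in shCHROME and 343.3 ± 79.9 normalized counts in EV cells (limma adjusted p = 0.942), and none of 3 endothelial markers passed the test by limma, edgeR or DESeq2 (VWF was lower at an unadjusted limma p under 0.05). Among the endothelial markers, VWF averaged 916.6 in shCHROME and 1025 normalized counts in EV cells. CDH5 averaged 20.2 in shCHROME and 11.9 in EV cells, and PECAM1 37.7 in shCHROME and 40.7 in EV cells. LYZ, a leukocyte marker, averaged 5886.5 in shCHROME and 4779 normalized counts in EV cells and rose 1.22-fold. The fibroblast marker PDGFRB averaged 189 in shCHROME and 373.7 in EV cells and fell 1.98-fold. LYZ, PDGFRB and VWF had reads in every library, and which cells these came from was not tested.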

How the data were processed

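Total RNA of HepG2 cells (3 shCHROME and 3 EV libraries) was sequenced with paired reads from an Illumina TruSeq RNA kit, per the labels' protocols. The submitters' processing notes name STAR 2.5, featureCounts 1.5.2, DESeq2 (as version 3.4) and the build hg19. Annotation and strand use are not given in the sources used here; counts of overlapping genes and near-identical copies are therefore uncertain.

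In the table the authors deposited, each gene has a normalized signal in each library, a read count divided by a size factor. The deposited table adds p-values, raw and adjusted, and log2 fold changes from the authors' own comparison. Its 24656 rows hold 23368 distinct genes, and 1288 repeated rows were dropped. Every value was a whole multiple of the value of 1 read within 0.01 reads (100% of values), so whole reads were recovered, 29188213 to 35429420 per library. Within a group, libraries were farther apart than counting noise allows (chi-square per degree of freedom 5.72 to 17.0).

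limma 3.58.1 (R 4.3.3) was fitted with an intensity trend to log2(value + 1) of all 6 libraries with group as the only term, over 14598 genes that passed edgeR 4.0.16's filterByExpr applied to recovered reads, with Benjamini-Hochberg adjustment. The pseudocount of 1 understates changes of low genes, and folds are powers of the log2 value. Alternatives were TMM, DESeq2 size factors, upper-quartile and library-total scaling, no filter, a 1 CPM filter, a pseudocount of 0.1, edgeR quasi-likelihood and DESeq2 1.42.0 on the recovered reads (which call 1553 and 1639 genes), a replicate block and the omission of each library. The script was tested on simulated data.

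Named genes were members past an adjusted p of 0.05, the 2 with the highest mean in each complex, the largest positive and negative fold change in each complex, the SDH genes, the paralogous sets, and in other lists at most 4 called genes. The members and lists were chosen with earlier results of these data known. A few further genes, such as UQCRFS1 (for its promoter), TFAM, NRF1, GABPA and YY1, those called by another test or scaling only and those listed at an unadjusted p, were named after their values were seen. Markers were named as lists, and 1 marker of the packaging cells is not reported here. Shared sequence was measured as the share of 50-base windows of 1 annotated transcript that occur, on either strand, in a transcript of another gene. Overlaps with genes on the opposite strand are thus included, and these affect counts only where counting ignored strand.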

Additional observations from a re-analysis of the deposited data

How the results depend on the processing

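Over 16 alternatives, the median log2 fold change of the members and of each complex stayed within the spread of the libraries in 93 of 96 comparisons. Scaling to library totals, which moved the median of all genes by 0.05 on the log2 scale, gave medians of 0.0555 for the members, 0.0829 for complex I and 0.0201 for complex II, with 1 member lower, 7 higher and 936 genes higher over all genes. The 7 higher members were ATP5I, COX5A, COX8A, CYC1, NDUFB10, NDUFB9 and NDUFV2, of which ATP5I, COX5A, NDUFB10 and NDUFB9 are named after their values were seen. Since it shifts all genes alike, values just below 0 turn positive under it, among named members ATP5G1 (0.0406) and NDUFA10 (0.0202).

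No pairing by replicate letter was seen: same-letter libraries deviated with correlations of -0.05, -0.09 and 0.04, and 1 of 6 libraries correlated best with its own letter. Because each deviation is taken from a mean of 3 libraries, this check cannot exclude a batch shared by letter. With the letter as a replicate block, 1 member was lower (UQCRC2 had an adjusted p of 0.0581), against 5.23% of all genes (764), and 0 members were higher, against 349 genes (2.39%).

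When each library was left out in turn, 0 to 4 members were lower and 0 to 1 higher, against 599 to 1051 and 245 to 528 of all genes. The lowest counts over all genes came without shCHROME c (599 lower and 245 higher), EV a (635 and 297) and EV c (649 and 323). Without shCHROME a the 4 were COX7A2, UQCRC2, COX7A2L and NDUFA1; the 1 higher was NDUFV2, without EV b. Among the 29 named members that were not called, 7 changed sign in some alternative: without 1 library, log2 fold changes ranged over -0.0162 to 0.0344 for ATP5B, -0.147 to 0.0897 for ATP5G1, -0.212 to 0.0649 for COX6B2, -0.0915 to 0.0128 for COX7C, -0.0747 to 0.00246 for NDUFA10, -0.0117 to 0.0993 for NDUFA4 and -0.0266 to 0.0365 for SDHC. The cause of these moves was not tested. Of the 29, 23 stayed uncalled in every alternative.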
